A study of Mus musculus with 28 samples.

Results

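Intron reads of 10 genes were followed through 28 small RNA libraries from mouse sperm. The genes were Abcg2, Kcnj16, Plcb1, Ptgs2os, Tanc2, Myo6, Pls3, 4932438A13Rik, Pcmtd1 and Kmt2c, out of 20085 genes with intron reads in at least 1 of the 3 deposited count tables. They were picked because their summed intron counts were higher at a low dose of alcohol than in unexposed wild type (WT) males, so that contrast is only described here. P-values, standard errors and counts of genes passing that are printed for it belong to the choice and give no support. The same sums in the other genotypes, the exon counts of the genes and the position of the reads along their introns played no part in the choice. The medium and high dose libraries were fitted together with the low-dose contrast and so helped set its spread. Without medium-dose library 1 or 2, 8 of the genes passed.

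The WT table held 4 libraries of unexposed males and 4, 2 and 2 libraries of males that had received alcohol at the dose named low, medium and high. A second table held 4 libraries from alcohol-exposed Nrf2-/- males and 4 from Nrf2-/- males without alcohol, so both of its groups carry the Nrf2 deletion. The last table held 4 libraries from males with floxed Nrf2 and Albumin-Cre (Nrf2 LKO), and 4 from males with floxed Nrf2 alone (Nrf2 flox), none of them labelled as given alcohol. Albumin-Cre is active in hepatocytes, so the sperm measured is not the tissue in which the gene is deleted. The amounts, route and duration of alcohol, the age and strain of the mice, and whether each library came from 1 animal were not stated in any label or file header. P-values therefore measure only the spread between these libraries, which may be technical.

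Introns are the parts of a primary transcript that splicing removes in the nucleus and that are then usually degraded. Mature sperm are held to be largely silent in transcription, and part of their small RNA is gained during transit through the epididymis from vesicles shed by its epithelium. Small RNA libraries capture short molecules, so a read inside an intron is a short fragment that maps there. Nrf2, the protein of Nfe2l2, activates genes against oxidative and chemical stress by binding short DNA elements in their regulatory regions.

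The genes are taken in 3 sets to order the text, and the last set is a remainder. Abcg2 is an efflux pump of epithelial membranes, Kcnj16 a subunit of inward rectifier potassium channels that pairs with the product of Kcnj10, and Plcb1 a phospholipase C that acts below G protein-coupled receptors. Ptgs2os is a noncoding gene beside Ptgs2, the inducible prostaglandin synthase, on the opposite strand. Myo6 (a myosin that walks toward the minus end of actin) and Pls3 (an actin-bundling plastin on the X chromosome) belong to the cytoskeleton. Tanc2, a scaffold protein of synapses, is placed with them. 4932438A13Rik encodes a very large bridge-like lipid transfer protein, Pcmtd1 a protein related to isoaspartyl methyltransferases, and Kmt2c a histone methyltransferase of enhancers.

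Promoter sequence is shown because the study includes Nrf2 mutants. The shared rise of the members at the low dose is how they were chosen and gives no sign of a shared element. RefSeq promoter windows of 300 bases (250 before to 50 after a transcription start, build GRCm38.p6) were matched by symbol for 9 of the 10 genes, with 16 windows in all, and Pcmtd1 had none. The core of the antioxidant response element, written TGACNNNGC and searched on both strands, was found in 3 of the 16 windows, against 4071 of 32851 windows (12.4%) over all genes. The windows with a match belong to Plcb1, 4932438A13Rik and Kcnj16, and a window of Abcg2, which had none in any of its 3 windows, is given for comparison. Matches are in capitals, and the Kcnj16 window holds 1 on each strand.
Plcb1, chr2:134785914-134786213, plus strand: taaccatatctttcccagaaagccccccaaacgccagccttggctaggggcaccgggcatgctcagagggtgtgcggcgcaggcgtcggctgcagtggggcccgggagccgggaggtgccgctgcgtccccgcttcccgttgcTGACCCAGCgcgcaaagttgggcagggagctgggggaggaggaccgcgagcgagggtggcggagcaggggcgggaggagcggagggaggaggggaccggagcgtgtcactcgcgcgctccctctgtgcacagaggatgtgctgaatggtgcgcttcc
4932438A13Rik, chr3:36862856-36863155, plus strand: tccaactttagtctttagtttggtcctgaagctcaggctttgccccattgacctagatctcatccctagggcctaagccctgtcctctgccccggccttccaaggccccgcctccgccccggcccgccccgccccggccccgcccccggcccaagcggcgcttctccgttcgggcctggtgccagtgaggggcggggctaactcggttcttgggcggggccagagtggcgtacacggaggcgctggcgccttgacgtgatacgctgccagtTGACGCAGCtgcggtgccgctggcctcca
Kcnj16, chr11:111019335-111019634, plus strand: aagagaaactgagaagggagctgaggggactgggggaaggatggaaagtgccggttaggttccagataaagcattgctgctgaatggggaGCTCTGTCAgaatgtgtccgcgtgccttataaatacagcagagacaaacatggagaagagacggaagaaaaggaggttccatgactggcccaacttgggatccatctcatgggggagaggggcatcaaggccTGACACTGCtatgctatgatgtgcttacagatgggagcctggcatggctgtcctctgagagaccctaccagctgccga
Abcg2, chr6:58640296-58640595, plus strand: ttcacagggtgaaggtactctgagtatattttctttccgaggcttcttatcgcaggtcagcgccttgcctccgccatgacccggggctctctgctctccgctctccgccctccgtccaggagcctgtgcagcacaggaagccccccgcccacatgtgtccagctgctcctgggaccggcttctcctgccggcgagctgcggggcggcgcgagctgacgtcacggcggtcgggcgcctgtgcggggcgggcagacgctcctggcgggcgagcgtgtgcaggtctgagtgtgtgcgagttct
A match is a description of these letters and not a bound site.

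Total counts per library were 1993933 to 11119711 in the WT table, 3922109 to 6448390 in the Nrf2-/- table and 2567463 to 4394714 in the LKO and flox table. Levels below are CPM, a read count scaled to library size over all reads outside miRNAs within a table, and tables were scaled separately. Exon reads of Nfe2l2 numbered 1 to 10 per library in alcohol-exposed Nrf2-/- libraries, 0 to 20 in Nrf2-/- controls, 0 to 22 in LKO, 9 to 20 in flox and 4 to 47 in WT, and the deleted part of the gene was not given. All 8 sperm and spermatid markers had exon reads in each group. Exon reads of epididymis epithelium markers were also present, with 5 to 9 of the 9 markers read per group, and the Nrf2-/- controls spread most widely, at 1835, 1630, 91.6 and 75.1 CPM in controls 1 to 4. Control 4 of the Nrf2-/- group stood apart, with 22.97 CPM of summed member introns against 226 to 255 CPM in the other 3 Nrf2-/- controls. Some results that rest on it are given with and without it. Shares and medians over all introns, all exons and related genes include it throughout.

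In WT males at the low dose, intron reads of all 10 genes were above every unexposed library, by 2.18-fold (Tanc2) to 7.86-fold (Ptgs2os). Summed over the genes, low-dose libraries 1 to 4 had 216, 162, 144 and 152 CPM of intron reads, against 48.2, 53.8, 81.1 and 60.2 CPM in unexposed libraries 1 to 4. The 10 genes were all of the features past an adjusted p of 0.05 in edgeR's quasi-likelihood F test over 17930 features (0.0558%), which is how they were chosen. This match is no result, because the robust prior of the fit was set so that the list was recovered, and without it 8 features passed, 5 of them members. Complete separation upward was seen in 591 of the 17930 features (3.3%) and in 497 of 7245 introns (6.86%), and intron sums as a class leaned the same way, with 65.9% higher and a median log2 difference of 0.16. In RNA from a mixture of cells, a change in the number of cells of a type and a change in RNA per cell cannot be told apart.

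Among the membrane and signalling genes, Abcg2 had 56.4, 37.2, 29.0 and 34.7 CPM of intron reads at the low dose, against 5.26, 7.88, 16.7 and 11.7 CPM in unexposed libraries. The lowest low-dose library, at 29.0 CPM, stood well clear of the highest unexposed one, at 16.7 CPM. Kcnj16, the channel subunit, had 13.2, 9.72, 5.66 and 7.84 CPM at the low dose. Its unexposed libraries had 0.877, 2.01, 3.60 and 1.93 CPM, from counts of 4, 12, 8 and 13 that include reads counted more than once. Plcb1 had the most intron reads of the 10 genes, with 59.6, 42.2, 37.4 and 42.9 CPM at the low dose, against 18.6, 17.1, 26.6 and 18.1 CPM in unexposed libraries. For all 3 genes the groups were apart, and unexposed library 3, the shallowest, was the highest of its group. Ptgs2os had 6.78, 5.39, 3.48 and 4.18 CPM at the low dose, from 24 to 44 reads per library, against 0.219, 0.503, 0.901 and 0.890 CPM in unexposed libraries. The unexposed level of this noncoding gene rested on 1, 3, 2 and 6 reads, so its fold, the highest of the 10, is also the least precise (log2 difference 2.97, SE 0.48).

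Of the cytoskeletal and scaffold genes, Tanc2 had the tightest exposed group, with 21.9, 20.9, 21.5 and 19.2 CPM at the low dose. Its unexposed libraries had 7.23, 9.39, 13.5 and 8.90 CPM. Myo6 had 20.8, 12.6, 10.4 and 14.3 CPM at the low dose, against 5.70, 4.86, 7.66 and 5.19 CPM in unexposed libraries. The gap between the Myo6 groups was narrower than their spread, from 7.66 to 10.4 CPM. Pls3 had 4.16, 3.81, 5.66 and 4.53 CPM at the low dose, against 0.658, 1.01, 1.35 and 1.48 CPM in unexposed libraries, where it had 3, 6, 3 and 10 reads.

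Of the remaining genes, 4932438A13Rik had 12.5, 15.2, 8.70 and 10.5 CPM at the low dose, against 3.07, 5.20, 4.50 and 4.45 CPM in unexposed libraries. Pcmtd1 had 8.32, 5.25, 8.12 and 5.58 CPM at the low dose. Its unexposed libraries had 1.53, 1.34, 1.35 and 2.67 CPM, from 7, 8, 3 and 18 reads. Neither gene overlapped between the groups, and no single low-dose library was the highest for every gene. Kmt2c had 12.5, 10.1, 13.6 and 8.71 CPM at the low dose, against 5.04, 4.53, 4.95 and 4.90 CPM in unexposed libraries, the narrowest unexposed group of the 10 genes relative to its mean.

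**Figure D1:**
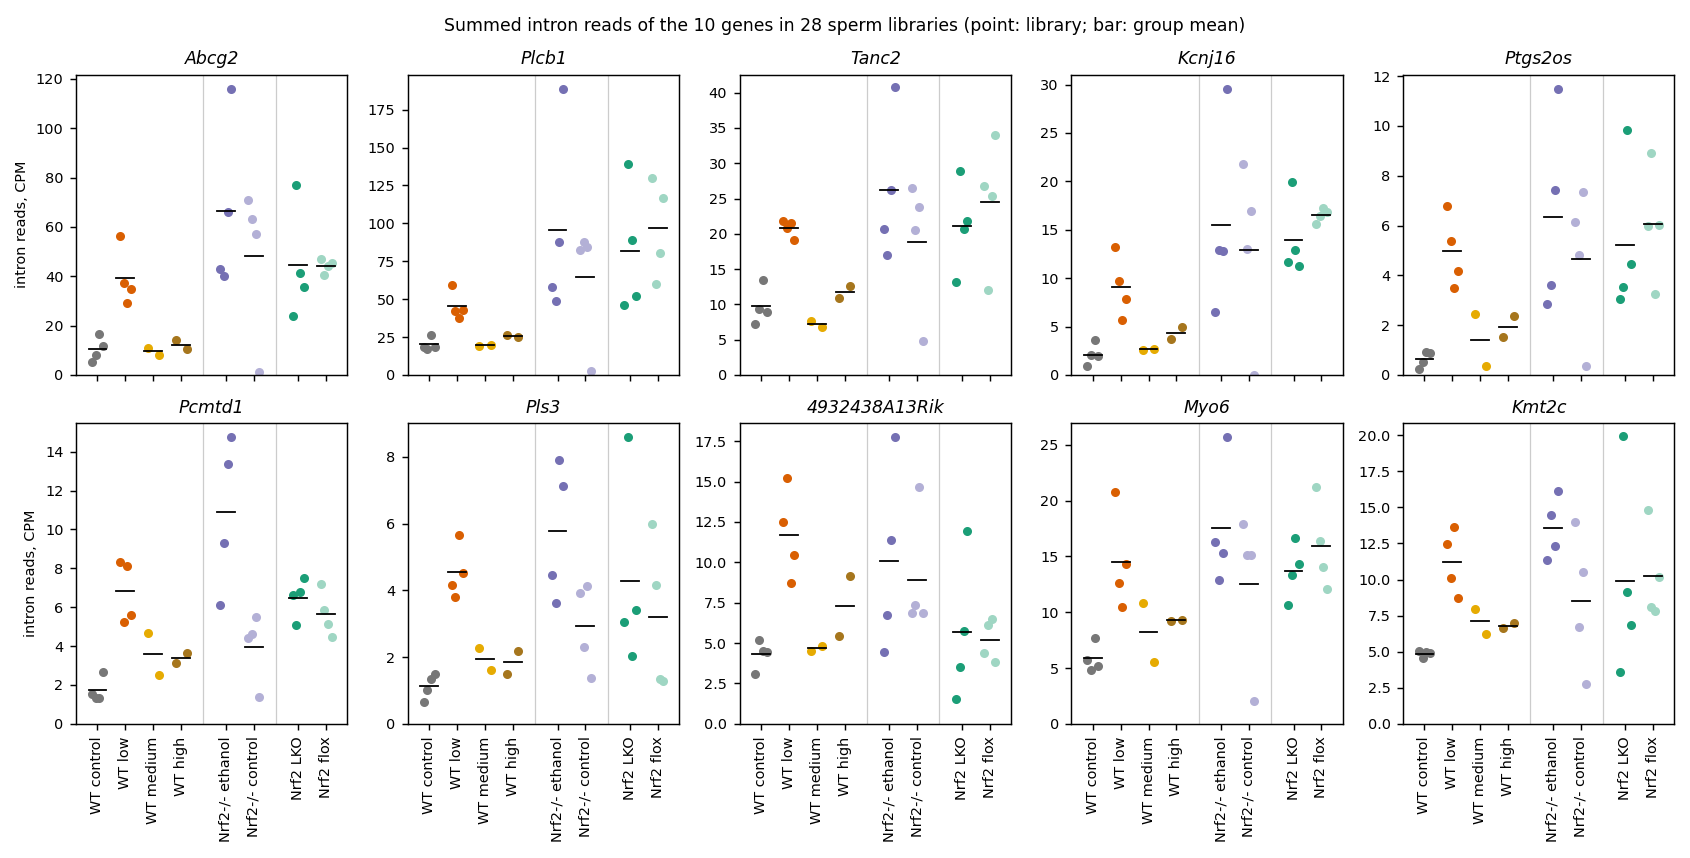
Summed intron reads of each gene in CPM (vertical axes, linear, each with its own scale) in the 28 libraries, by group along the horizontal axis; points are libraries, bars are group means and grey lines part the 3 tables. At the low dose every gene lies above all unexposed WT libraries, medium and high dose libraries lie near the unexposed ones for Abcg2, Plcb1 and Tanc2, and 1 Nrf2-/- control library lies near 0 for Abcg2, Plcb1 and Kcnj16.

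The values just inside the threshold were those of Tanc2, Myo6 and Kmt2c, each with an adjusted p of 0.0461. The nearest intron outside it was Arhgap18, with 18.9 ± 2.60 CPM at the low dose and 8.30 ± 3.94 CPM unexposed (SD, n = 4 each), a log2 difference of 1.24 and an adjusted p of 0.0654. Membership of the 10 depended on single libraries: without unexposed library 1, 2, 3 or 4 the test kept 1, 0, 9 and 0 of the genes, and without low-dose library 1, 2, 3 or 4 it kept 0, 4, 5 and 3. With the total of all reads as library size it kept 0, and with 1 transcript counted per gene it kept Abcg2, Plcb1, Kcnj16, Ptgs2os, Pcmtd1 and 4932438A13Rik. The log2 differences themselves stayed above 0 for all 10 genes in each of 20 settings, from 0.95 for Tanc2 to 3.31 for Ptgs2os. The genes were chosen for being higher in these same libraries, so the kept sign restates the choice and adds no support.

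Levels between genes were compared per kilobase of intron, with lengths from GENCODE M21 transcripts that carry the same RefSeq identifier. At the low dose Abcg2 was highest, at 0.421 ± 0.127 CPM per kilobase, followed by Ptgs2os at 0.225 ± 0.0657 and Myo6 at 0.105 ± 0.0321 (SD, n = 4 each). The next neighbours, Pcmtd1 at 0.0858 ± 0.0205, Kcnj16 at 0.0698 ± 0.0230, 4932438A13Rik at 0.0674 ± 0.0161, Plcb1 at 0.0640 ± 0.0143, Tanc2 at 0.0637 ± 0.00364 and Kmt2c at 0.0535 ± 0.0106 CPM per kilobase, each overlapped the gene before it at 1 SD, with Pls3 lowest at 0.0354 ± 0.00444. In unexposed libraries Abcg2 was again highest, at 0.111 ± 0.0531 CPM per kilobase, and Ptgs2os, at 0.0286 ± 0.0150, lay among the other genes. Plcb1's high total thus goes with 682 kilobases of intron, against 93.3 kilobases for Abcg2 and 22.01 for Ptgs2os.

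Reads were spread along the introns rather than held by 1 row of the tables, and in Abcg2, Plcb1, Tanc2 and Myo6 the longest intron held the most. In the WT table the first intron of Abcg2, the longest at 58.5 kilobases, held 31.8% of the gene's 1545 intron reads, with 304 reads at the low dose and 55 unexposed. Plcb1 had 45.8% of its reads on an intron of 232 kilobases (577 reads at the low dose, 157 unexposed) and 29.5% on one of 174 kilobases (351 reads at the low dose, 110 unexposed). For Tanc2 an intron of 63.4 kilobases held 29.7% (176 reads at the low dose, 49 unexposed), and for Myo6 the first intron, of 52.4 kilobases, also held 29.3% (100 reads at the low dose, 42 unexposed). Across the introns of a gene, Pearson's r between reads and intron length was 0.95 for Abcg2, 0.97 for Plcb1, 0.87 for Tanc2 and 0.89 for Myo6 in the WT table, as a description over introns of 1 gene, which share their libraries. The values in the Nrf2-/- table were 0.93, 0.96, 0.82 and 0.83 for the same genes, and 0.97, 0.95, 0.85 and 0.83 in the LKO and flox table. Numbering in the files starts at 0 and lengths were joined for genes on the plus strand. Introns without reads were left out of r, so in the WT table Myo6 entered with 26 of 32 introns and Plcb1 with 28 of 31. In Abcg2 and Myo6 the longest intron far exceeded the next with reads, of 7.76 and 13.2 kilobases, and r was not computed without it. Reads did not follow length alone. In the WT table the Abcg2 intron numbered 6, of 2.67 kilobases, held 128 reads, against 492 on the first intron of 58.5 kilobases. The Myo6 intron numbered 27, of 6.63 kilobases, held 127 reads (17.3%), against 28 on the intron numbered 4, of 13.2 kilobases.

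**Figure D2:**
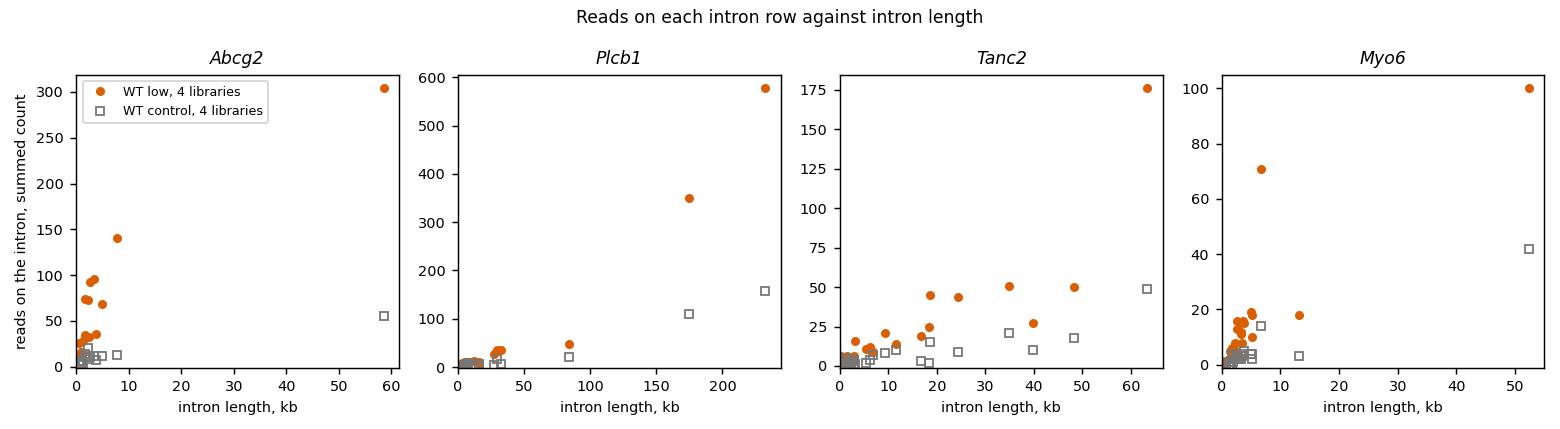
Reads on each intron of Abcg2, Plcb1, Tanc2 and Myo6 (vertical axes, summed over 4 libraries) against the length of the intron in kilobases (horizontal axes), at the low dose (filled circles) and in unexposed WT libraries (open squares). The longest intron of each gene holds the most reads in both groups, 304 against 55 for Abcg2 and 577 against 157 for Plcb1.

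4932438A13Rik differed from these in layout: its 561 WT intron reads lay on 79 introns, the fullest of which held 4.63%, and r with length was 0.38. Pcmtd1 had 51.6% of its reads on the intron numbered 2, of 13.2 kilobases, with 104 reads at the low dose and 14 unexposed, although its first intron is longer, at 31.0 kilobases (50 reads at the low dose, 16 unexposed). Ptgs2os carried 42.6% and 42.1% on the introns numbered 0 and 3, with 57 and 53 reads at the low dose against 7 and 4 unexposed. In Kmt2c, on the minus strand, the introns numbered 57 and 56 held 18.3% and 12.3% (67 and 33 reads at the low dose, 16 and 9 unexposed).

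Some reads were counted more than once, because rows of overlapping transcripts were listed side by side. Kcnj16 had 5 rows, and the first intron of 1 transcript held 163 reads, the same number as both introns of another transcript together (73 and 90 reads). Rows of such further transcripts held 56.6% of the Kcnj16 intron counts, 31.6% of those of Pls3 and 4.21% of those of Plcb1 in the WT table, and none in the other 7 genes. Annotated genes also lie inside the spans of Plcb1 (3), Tanc2 (3, including a miRNA gene), Kmt2c (4), Pcmtd1 (2), 4932438A13Rik (1) and Myo6 (1). Whether counting used strand was not given, so their reads and those of the host introns cannot be told apart.

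Exon reads of the same genes did not part the low-dose libraries from the unexposed ones. Abcg2 had 38.8, 15.1, 49.3 and 31.2 CPM of exon reads at the low dose, against 13.4, 17.1, 73.9 and 44.7 CPM unexposed. Its groups overlapped throughout, and so did those of the other 9 genes. Exon sums were higher at the low dose in 3 of 10 genes with a median log2 difference of -0.04, beside 36.9% of 9022 exon sums with a median of -0.13 over all genes. Single libraries moved the members' values, from 0 of 10 higher (median -0.30) without unexposed library 1 to 8 of 10 (median 0.155) without unexposed library 3. The log2 differences of the exons ran from -0.60 for Pls3 to 0.06 for 4932438A13Rik. Set against each other, intron and exon reads of the 10 genes gave 1.77, 2.68, 1.07 and 1.77 intron reads per exon read at the low dose. Unexposed libraries had 0.746, 0.748, 0.443 and 0.475. The intron reads in this ratio are those the genes were chosen on, so its rise restates the choice. Over all genes, introns and exons took on average 6.36% and 6.93% of reads at the low dose, against 5.70% and 6.68% unexposed.

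Markers of other cell types moved with the low dose in both directions. Summed exon reads of epididymis markers were 426, 177, 441 and 225 CPM at the low dose, against 546, 450, 552 and 611 CPM unexposed, while intron reads of the same markers were 42.4, 26.5, 44.1 and 23.4 CPM at the low dose, against 8.11, 17.95, 19.8 and 16.9 CPM unexposed. Red blood cell marker exons were 36.6 to 78.0 CPM at the low dose, against 4.05 to 15.3 CPM unexposed, with 8 of 9 markers read and Ahsp at 0 in both groups. Sperm and spermatid marker exons were 503 to 800 CPM at the low dose and 445 to 606 CPM unexposed, and their introns were 39.3 to 49.5 CPM at the low dose and 37.4 to 58.5 CPM unexposed. Introns as a class took 6.20% to 6.69% of all reads at the low dose, against 3.23% to 7.03% unexposed, where the lowest share belonged to control 1, in which structural RNA made up 75.8% of reads. The part of these shifts in the intron reads of the 10 genes was not tested.

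**Figure D3:**
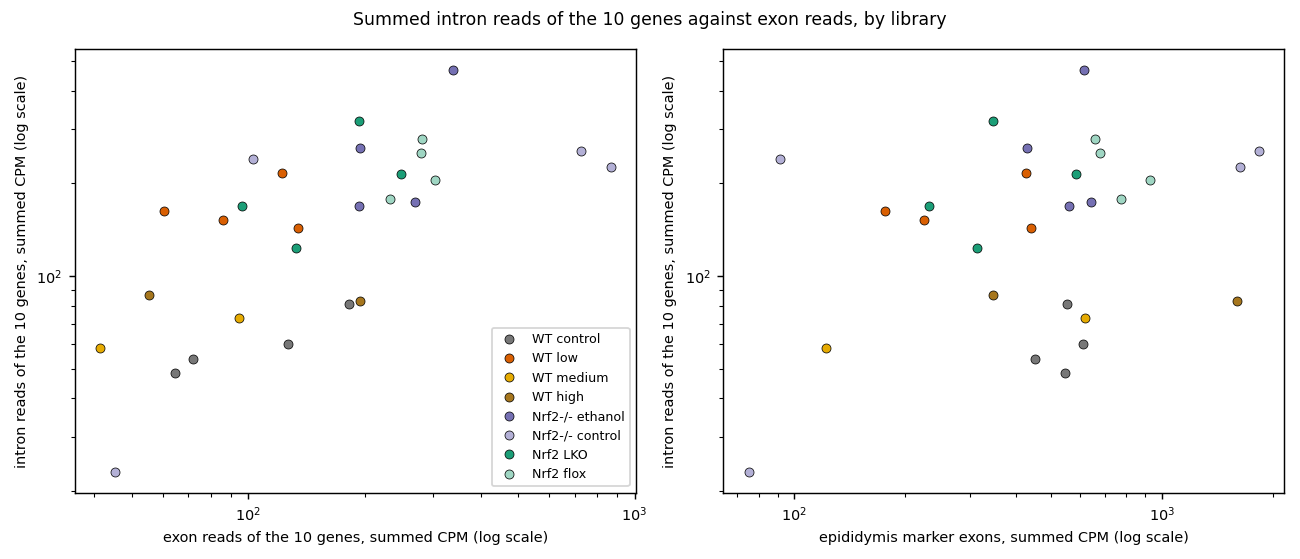
Summed intron reads of the 10 genes in each library (vertical axes) against their summed exon reads (left) and against summed exon reads of 9 epididymis markers (right), all in CPM on log axes; each point is 1 of 28 libraries, coloured by group. The low-dose libraries (144 to 216 CPM of intron reads) lie above the unexposed WT libraries (48.2 to 81.1 CPM) at like or lower exon levels, and 1 Nrf2-/- control lies at 22.97 CPM of intron reads.

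At the medium and high doses intron reads of the 10 genes lay nearer to the unexposed level, at 73.0 and 58.4 CPM in the medium-dose libraries and 82.6 and 86.4 CPM in the high-dose libraries for the 10 genes together. None of the 10 passed the adjusted threshold, nor did any of the 17930 features (0.0%), with 501 of them at an unadjusted p under 0.05, and DESeq2 called 1 feature that was no member. The 4 libraries were pooled against the 4 unexposed ones, because the column of 1 medium-dose library is named like those of the high dose. The unexposed libraries are the ones the genes were chosen against, so low values there would raise both comparisons. Intron sums were higher in 9 of 10 genes with a median log2 difference of 0.57, beside 61.5% of 7245 introns with a median of 0.09 over all genes.

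Pcmtd1 had the lowest p, with 4.70 and 2.50 CPM at the medium dose and 3.12 and 3.66 CPM at the high dose, against 1.34 to 2.67 CPM unexposed (log2 difference 0.94, SE 0.35, edgeR adjusted p = 1.0). Ptgs2os had 2.43 and 0.357 CPM at the medium dose and 1.51 and 2.38 CPM at the high dose, against 0.219 to 0.901 CPM unexposed (log2 difference 1.39, SE 0.54). For both genes 3 of the 4 exposed libraries were above the unexposed range. Kcnj16, Myo6 and Kmt2c also had an unadjusted p under 0.05, with log2 differences of 0.78, 0.62 and 0.52, which makes 5 of 10 genes against 187 of 7245 introns and 1.51% of all features in the same direction. This count of member genes depended on single libraries, and without unexposed library 2 it was 0. Without medium-dose library 1 the members' median log2 difference was 0.44, beside 0.57 with all libraries. Libraries did not overlap for Pls3 and Kmt2c, beside 1.15% of all features and 2.06% of introns.

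The genes with the most intron reads moved least at these doses. Abcg2 had 10.8 and 8.22 CPM at the medium dose and 14.1 and 10.4 CPM at the high dose, inside the unexposed range, with a log2 difference of 0.11 (SE 0.29). Plcb1, at 19.3, 19.7, 26.4 and 24.7 CPM in medium and then high dose libraries, and Tanc2, at 7.61, 6.79, 11.0 and 12.6 CPM, also overlapped the unexposed libraries. Their log2 differences were 0.17 (SE 0.21) for Plcb1 and -0.05 (SE 0.22) for Tanc2. Over the dose series, mean Abcg2 intron reads were 10.4 ± 4.96 CPM unexposed (SD, n = 4), 39.3 ± 11.9 CPM at the low dose (n = 4), 9.53 ± 1.86 CPM at the medium dose (n = 2) and 12.2 ± 2.57 CPM at the high dose (n = 2). No dose was tested against another. Exons of the 10 genes again overlapped, with 2 of 10 higher and a median log2 difference of -0.06, beside 40.6% of 9022 exon sums higher and a median of -0.08 over all genes. The members' exon median ran from -0.66 without high-dose library 1 to 0.145 without medium-dose library 2.

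In Nrf2-/- males intron sums of all 10 genes were higher with alcohol than without, but none passed the adjusted threshold and the libraries overlapped for 9 of 10. No feature among 9661 passed in this table (0.0%), 452 had an unadjusted p under 0.05, and DESeq2 called 13, none of them a member. The median log2 difference of the genes was 0.48, beside 0.34 over all introns in the table, of which 69.7% were higher. Without the outlying Nrf2-/- control 4 the median fell to 0.18 with 9 of 10 genes higher, and without alcohol-exposed library 4, the highest of its group for 9 of the 10 genes, it fell to 0.13 with 8 of 10 higher. The values over all introns include both libraries. The column name of exposed library 4 begins with another letter than those of the other Nrf2-/- libraries, for a reason not given.

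Pcmtd1 was the exception, with 6.09, 9.29, 13.3 and 14.8 CPM of intron reads in alcohol-exposed Nrf2-/- libraries, against 4.41, 4.61, 5.50 and 1.37 CPM in Nrf2-/- controls. All 4 exposed libraries were above all controls, a separation upward seen in 2.96% of features and in 7.02% of introns. Its log2 difference was 1.45 (SE 0.49), with an edgeR p of 0.0126 and an adjusted p of 0.777, and without control 4 it was 1.22 with an adjusted p of 0.557. The intron numbered 2 again led, with 66 reads in exposed and 27 in control libraries. Pls3 followed, with 4.47, 3.61, 7.90 and 7.12 CPM with alcohol, against 3.92, 2.31, 4.12 and 1.37 CPM without it, a log2 difference of 0.99 (SE 0.47). With 1 library left out this difference ran from 0.81 to 1.21. Exposed library 2 of this plastin gene lay within the control range.

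Abcg2, Plcb1 and Kcnj16 show how far single libraries set this comparison. Abcg2 had 43.0, 40.3, 66.2 and 116 CPM with alcohol, against 71.0, 63.3, 57.2 and 1.03 CPM without it. Plcb1 had 58.1, 48.5, 87.4 and 189 CPM with alcohol, against 82.3, 87.9, 84.7 and 2.40 CPM without it. Kcnj16 had 6.50, 12.9, 12.8 and 29.6 CPM with alcohol, against 21.8, 13, 16.9 and 0 CPM without it, where 0 reads allow up to 1.03 CPM at that depth by counting error. In each of the 3 genes the other 3 controls lay above at least 1 exposed library. The log2 differences were 0.46 (SE 0.84), 0.57 (SE 0.82) and 0.26 (SE 0.87), and without control 4 they were 0.10, 0.20 and -0.11.

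Control 4 was low in most of the genes but not in all. For 9 of the 10 genes it had the lowest intron level of its group by a clear margin, while for 4932438A13Rik it had 6.86 CPM, beside 6.86, 7.34 and 14.7 CPM in controls 1 to 3. Its summed member exons were 45.3 CPM, against 726, 868 and 103 CPM in controls 1 to 3, and its sperm and spermatid marker exons were 2034 CPM, against 182, 252 and 1304 CPM. Intron reads per exon read of the 10 genes were 0.645 to 1.38 in alcohol-exposed libraries, against 0.351, 0.260, 2.33 and 0.508 in controls 1 to 4, and control 3, the highest, had few member exons but 240 CPM of member introns. Summed member exons were 270, 193, 195 and 339 CPM with alcohol, below controls 1 and 2 and above controls 3 and 4, and epididymis marker exons split in the same way, at 640, 558, 429 and 613 CPM with alcohol, against 1835, 1630, 91.6 and 75.1 CPM in controls 1 to 4. The part of these markers in the exon values was not tested. Exon log2 differences of the 9 genes tested were below 0 in all 9, with a median log2 difference of -0.93, beside 15.5% of 5420 exon sums higher and a median of -0.49 over all genes, and the members' median was -0.59 without control 1, with 1 of 10 higher, and -0.34 without control 2, with 1 of 9 higher. Ptgs2os exons had too few reads to be tested.

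In the LKO and flox table no intron difference of the 10 genes was larger than the spread between libraries by the test. None of the 9 genes tested passed in edgeR or in DESeq2, beside 5 of 9837 features (0.0508%), and Pls3, with 3.05, 8.61, 2.04 and 3.41 CPM in LKO and 6.00, 4.17, 1.35 and 1.27 CPM in flox, was below the filter on low counts. Abcg2 had 23.9, 77.1, 41.4 and 35.5 CPM in LKO, against 47.2, 40.6, 44.0 and 45.4 CPM in flox, with a log2 difference of 0.01 (SE 0.28). The LKO libraries spread on both sides of the narrow flox group. Log2 differences of the 9 genes ran from -0.24 for Kcnj16 to 0.21 for Pcmtd1, with a median of -0.18 and 3 of 9 higher, beside 59.9% of 3357 introns with a median of 0.13 over all genes. At an unadjusted p under 0.05 there were 0 of the 9, beside 12.3% of all features.

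Plcb1 had 46.2, 139, 89.0 and 52.2 CPM in LKO, against 130, 59.8, 80.1 and 117 CPM in flox, and Kcnj16 had 11.7, 19.96, 12.9 and 11.3 CPM in LKO, against 15.6, 16.4, 17.3 and 16.8 CPM in flox. LKO library 2 was above all flox libraries for both. Its column name ends in another letter than those of the other LKO and flox libraries, for a reason not given. Myo6 had 10.7, 13.3, 16.6 and 14.3 CPM in LKO and 21.2, 16.4, 14.03 and 12.1 CPM in flox. Tanc2 averaged 21.2 ± 6.44 CPM in LKO and 24.5 ± 9.19 CPM in flox, Ptgs2os 5.21 ± 3.14 CPM in LKO and 6.05 ± 2.31 CPM in flox, and Pcmtd1 6.50 ± 1.02 CPM in LKO and 5.65 ± 1.18 CPM in flox (SD, n = 4 each). For 4932438A13Rik the means were 5.69 ± 4.51 CPM in LKO and 5.20 ± 1.30 CPM in flox, and for Kmt2c 9.88 ± 7.10 CPM in LKO and 10.2 ± 3.23 CPM in flox.

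Exons of the genes were lower in LKO for all 9 tested, with a median log2 difference of -0.64, beside 38.6% of 5320 exon sums higher and a median of -0.18. An unadjusted p under 0.05 was reached by 5 of 9, beside 798 of 5320 exon sums, and none passed the adjusted threshold. Pls3 exons had 8.13, 4.70, 14.9 and 6.82 CPM in LKO, against 11.6, 22.5, 27.8 and 16.5 CPM in flox (log2 difference -1.18, SE 0.35, edgeR adjusted p = 0.179). Kmt2c exons had 7.62, 7.83, 11.9 and 9.21 CPM in LKO, against 17.6, 14.5, 17.8 and 21.6 CPM in flox, and did not overlap (log2 difference -0.95, SE 0.30, edgeR adjusted p = 0.203). Kcnj16 exons had 8.64, 15.3, 12.6 and 4.78 CPM in LKO, against 18.4, 17.8, 19.2 and 20.6 CPM in flox (log2 difference -0.88, SE 0.32), one of 3.88% of features whose LKO libraries all lay lower. Without LKO library 3, 2 of the member exons passed, with 230 features in all. Epididymis marker exons were 313, 348, 582 and 232 CPM in LKO, against 658, 772, 926 and 680 CPM in flox, and their part in the exon differences was not tested.

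**Figure D4:**
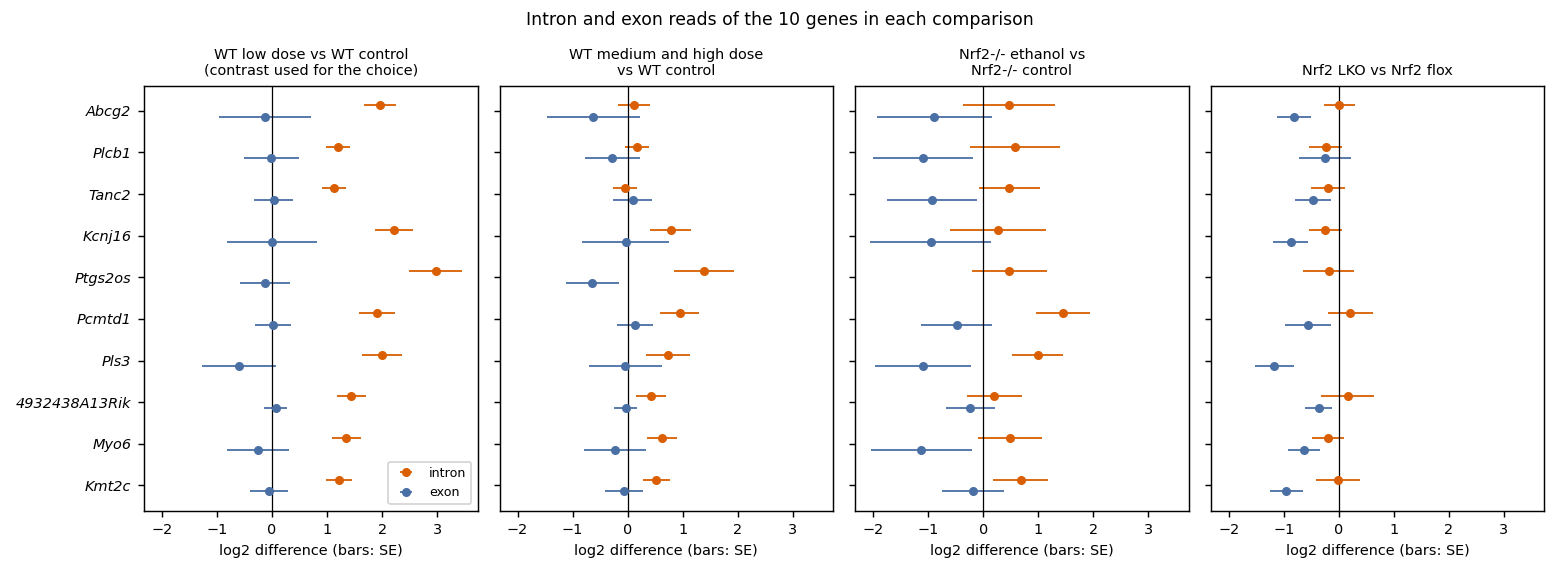
Log2 differences of summed intron reads (orange) and exon reads (blue) of the 10 genes, with bars of 1 standard error, in the 4 comparisons; the first panel is the contrast the genes were chosen from. Intron differences lie right of 0 for all genes at the low dose, for 9 of 10 at the medium and high doses and for all in Nrf2-/- males, where the bars are widest, and exon differences lie left of 0 for all 9 tested genes in the panels of Nrf2-/- and of LKO.

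Intron levels of the genes also differed between tables, at 48.2 to 81.1 CPM in unexposed WT, 178 to 279 CPM in flox and, apart from control 4, 226 to 255 CPM in Nrf2-/- controls for the 10 genes together. Library names in the labels hold a code that is shared within a table and differs between tables, so genotype and library set cannot be told apart. The low-dose WT libraries, at 144 to 216 CPM, lay below Nrf2-/- controls 1 to 3 and overlapped flox males on this scale.

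Within groups, the 10 genes varied together to different degrees. Over the 45 pairs of genes, Pearson's r of log2 CPM after removal of group means was 0.17 to 0.96 with a median of 0.63 over 28 libraries, and 0.12 to 0.81 with a median of 0.39 without Nrf2-/- control 4. Abcg2 and Plcb1 were the closest pair, at 0.96 with and 0.81 without that library, and 4932438A13Rik and Kmt2c were the least alike over 28 libraries. These points share library depth and composition, so r is a description. Among the 5 other introns most like the summed member introns, of 2690 compared, were those of Shroom3, Slco2a1, Ptprz1 and Syne2, with r of 0.94 to 0.96 over 28 libraries and 0.82 to 0.89 without control 4, where the median over all candidates was 0.04 over 28 libraries. Shroom3 shapes epithelial cells, Slco2a1 carries prostaglandins into cells, Ptprz1 is a receptor phosphatase and Syne2 a linker of nucleus and cytoskeleton. Their low-dose log2 differences were 1.06 for Shroom3, 1.36 for Slco2a1, 1.18 for Ptprz1 and 0.83 for Syne2, all short of the adjusted threshold.

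Relatives of the 10 genes were drawn from a list of 54, covering efflux pumps, phospholipases C, inward rectifiers, prostaglandin synthesis, plastins, lipid transfer proteins, myosins and partners of Kmt2c. At the low dose 41 had enough intron reads to be tested and 0 passed, with 31 higher, a median log2 difference of 0.29 and 8 at an unadjusted p under 0.05, beside 65.9% higher, a median of 0.16 and 809 of 7245 at that p over all introns. Pla2g4a, which releases arachidonic acid for prostaglandin synthesis, had the lowest p (log2 difference 0.88, edgeR adjusted p = 0.226), and the histone demethylase Kdm6a was also among the 3 lowest (log2 difference 0.95, edgeR adjusted p = 0.516). At the medium and high doses 26 of 41 were higher, beside 61.5% of all introns, with a median of 0.14 and 0 at an unadjusted p under 0.05, and the lowest p values were those of Plcl1 (0.46), Pcmt1 (0.54) and Vps13c (0.53). In Nrf2-/- males 22 of 25 were higher with alcohol (median 0.43), beside 69.7% of all introns (median 0.34), led by Vps13c (0.95), Myo9a (0.95) and Myo10 (0.62). In LKO 11 of 21 were higher (median 0.01), beside 59.9% of all introns (median 0.13), and Ptgs2 (-0.83), Plcb4 (0.51) and Ptgs1 (0.72) came first by p, with 0 calls by edgeR in each of these comparisons.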

How the data were processed

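Sperm RNA was isolated with Trizol and made into libraries with a Qiaseq small RNA kit, per the labels' protocols. The authors deposited 3 tables of raw counts, with 1 row per annotated feature. The aligner, counting tool, strand setting, genome build and handling of multiply mapped reads were not given in the sources. Counts were summed per name within 8 feature classes, so intron rows were summed per gene. Features other than miRNAs were tested with edgeR 4.0.16 (R 4.3.3) by its quasi-likelihood test (two-sided, filterByExpr by group, TMM, robust prior, Benjamini-Hochberg at 0.05). The 12 WT libraries were fitted together and each other table with its 8 libraries. CPM use the TMM-scaled sum of counts on features outside miRNAs that passed the filter. The robust prior was set after the data were seen, so that the listed members were recovered. Members, relatives and markers were chosen with earlier results of these data known. Named by rule were all members, the nearest intron outside the threshold, the 3 relatives with the lowest p per comparison and the 5 introns most like the members (log2 CPM, prior count 2). One gene that this rule names is not reported here. Alternatives included DESeq2 1.42.0, other library sizes, no filter, 1 transcript per gene and left-out libraries. Depth was 1993933 to 11119711 counts per library. A floor of 3 counts reflects counting error alone. The fit was tested on simulated data.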

Additional observations from a re-analysis of the deposited data

Results flagged for a closer look

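In 5 of 120 groups of 4 libraries, 1 library lay far from the other 3, and chance alone would mark about 1 in 20 such groups. Plcb1 intron reads were 26.6 CPM in WT control 3, against 17.1 to 18.6 CPM in the other unexposed WT libraries. Plcb1 intron reads were 2.40 CPM in Nrf2-/- control 4, against 82.3 to 87.9 CPM in the other Nrf2-/- controls. For Pcmtd1, WT control 4 had 2.67 CPM of intron reads, against 1.34 to 1.53 CPM in the others. For Kmt2c, WT control 3 had 13.5 CPM of exon reads, against 7.45 to 8.05 CPM in the others. For 4932438A13Rik, Nrf2-/- control 3 had 14.7 CPM of intron reads, against 6.86 to 7.34 CPM in the others.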

How the results depend on the processing

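At the low dose 10 features passed, all of them the member introns. With the total of all reads as library size 0 features and 0 members passed, with introns alone 36 and 10, with no filter 108 and 10, with DESeq2 44 and 8, with only the groups compared 68 and 10, and at an adjusted p of 0.1 21 and 10. With 1 transcript per gene 6 features passed, 6 of them members, with no robust prior 8 and 5, and with single intron rows 1 member gene had a row that passed. Leaving out 1 library gave 0 to 44 features and 0 to 10 members. For the medium and high doses the count of features was 1 with introns alone, 4 with no filter, 1 with DESeq2, 1 at an adjusted p of 0.1 and 0 to 5 with 1 library left out, beside 0 as reported. For Nrf2-/- DESeq2 gave 13. For LKO, with 5 as reported, introns alone gave 3, no filter 73, DESeq2 62, an adjusted p of 0.1 25 and left-out libraries 0 to 230, and 0 to 2 member exons passed with a library left out.

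Replicate numbers are shared between groups, but deviations of same-numbered libraries from their group means correlated at -0.08 to 0.17 between low dose and control, -0.14 to 0.27 between medium or high dose and control, -0.49 to 0.42 in Nrf2-/- and -0.07 to 0.18 between LKO and flox. In no comparison were all pairs above 0.1, and the samples were treated as unpaired. So few pairs cannot exclude a pairing or a batch shared by libraries of the same number. With the replicate block 52 features passed at the low dose, 10 of them members, 1 at the medium and high doses and 30 in LKO.

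Signs of small differences turned. At the medium and high doses Tanc2 was 0.034 with all reads as library size and 0.015 with the replicate block, and over left-out libraries ran from -0.14 to 0.10, as did Abcg2 from -0.088 to 0.37. In Nrf2-/- Kcnj16 was -0.10 with all reads as library size and -0.18 with introns alone, and 4932438A13Rik -0.14 with introns alone, and left-out libraries gave -0.24 to 0.67 for Kcnj16 and -0.21 to 0.56 for 4932438A13Rik. In LKO, all reads as library size gave -0.25 for Abcg2, -0.10 for Pcmtd1 and -0.13 for 4932438A13Rik. Abcg2 was also -0.13 with introns alone, -0.065 with no filter and -0.11 with the replicate block, where 4932438A13Rik was -0.066. Left-out libraries in LKO gave -0.38 to 0.21 for Abcg2, -0.50 to 0.45 for 4932438A13Rik, -0.58 to 0.23 for Kmt2c, -0.69 to 0.081 for Ptgs2os and -0.42 to 0.007 for Tanc2. The cause was not tested. Member introns passed in no alternative of these 3 comparisons. No robust prior and 1 transcript per gene were chosen after the data were seen. Ptgs2os and Pls3 rest on few reads, as do Kcnj16 and Pcmtd1 in unexposed WT libraries, so small differences in them were not detectable at this depth.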
